A study of Homo sapiens with 4 samples.

Results

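The open chromatin of the long arm of chromosome 17 (17q) was described from all peaks of chromosome 17 whose start position in the deposited lists was at least 25100000 (GRCh38). This gave 1640 of the 47610 peaks in the control list and 1457 of the 42682 in the sgSNHG1 list, or 3097 of 90292 in all. The arm held 3.44% of the control peaks and 3.41% of the sgSNHG1 peaks on 1.99% of the sequenced bases of the reference, and 87.5% and 87.0% of the peaks of its chromosome.

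The peaks came from ATAC-seq, in which the Tn5 transposase cuts and tags accessible DNA, in SK-N-BE(2)C, a MYCN-amplified human neuroblastoma cell line. Control cells carried a non-targeting guide RNA and the label wildtype, and sgSNHG1 cells carried a pair of guide RNAs against the long non-coding RNA SNHG1 and the label SNHG1 knockout. Both kinds of cells had gone through Cas9 transfection, puromycin selection and growth from sorted single cells, so a difference between the lists cannot be told apart from a difference between clones. Replicates, 2 per group, were merged by the authors ahead of peak calling. This left 1 list per group, no spread between replicates and no test between the groups. All intervals and errors given here cover counting error alone.

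Gain of 17q, usually as an unbalanced translocation that leaves the short arm (17p) out, is the most frequent chromosomal change of neuroblastoma and goes with poor outcome. Genes named as candidates on the gained segment include BIRC5, an inhibitor of apoptosis, PPM1D, a phosphatase that acts on p53, and TBX2, a T-box repressor of the neuroblastoma core regulatory circuitry. In ATAC-seq, reads rise with the accessibility of a site and also with the number of its copies, and the 2 cannot be told apart from a peak list. Copy number was not measured here.

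Of the 7 sympathetic neuroblast markers checked, 6 had a promoter peak in both lists (MYCN, 4.30 in control and 3.89 in sgSNHG1, HAND2, ISL1, DBH, GATA3 and PHOX2A), and TH, the first enzyme of catecholamine synthesis, had none in either. Fold enrichment is the pileup of fragments at the summit of a peak over the local background of the peak caller, each plus 1. The smallest background of any peak was 2.20 fragments for control and 1.72 for sgSNHG1, the only trace of depth the files hold. Median summit pileup on 17q was 28.0 fragments in control and 24.0 in sgSNHG1.

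The summit sequences of 7 sites are shown because the results below turn on them: the strongest promoter and distal pairs, pairs with the largest changes among those where −log10 q, the significance given by the peak caller, reached 10 in each list, the strongest peak of the sgSNHG1 list alone, and the strongest distal pair with a match to the CTCF consensus. Each run holds the summit base and 100 bases on either side, 5′ to 3′ on the plus strand of GRCh38, and capitals mark matches to the 13 short consensus sequences described with the sequence features.
U2 snRNA start (chr17:43251607-43251807): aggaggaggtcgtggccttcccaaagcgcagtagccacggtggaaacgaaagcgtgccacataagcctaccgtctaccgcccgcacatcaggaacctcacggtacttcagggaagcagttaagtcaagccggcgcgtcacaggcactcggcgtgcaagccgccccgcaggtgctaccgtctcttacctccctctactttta
strongest distal pair (chr17:26603812-26604012): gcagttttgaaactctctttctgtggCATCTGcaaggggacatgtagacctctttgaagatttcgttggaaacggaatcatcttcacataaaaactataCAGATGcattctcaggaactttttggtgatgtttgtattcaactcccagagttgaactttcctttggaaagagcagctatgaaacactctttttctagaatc
distal pair near the centromere that rose (chr17:25920100-25920300): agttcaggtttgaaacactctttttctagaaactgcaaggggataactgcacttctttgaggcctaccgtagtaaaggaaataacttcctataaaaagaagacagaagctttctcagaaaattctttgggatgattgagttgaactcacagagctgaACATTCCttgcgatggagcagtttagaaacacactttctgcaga
ANKRD40 promoter (chr17:50707830-50708030): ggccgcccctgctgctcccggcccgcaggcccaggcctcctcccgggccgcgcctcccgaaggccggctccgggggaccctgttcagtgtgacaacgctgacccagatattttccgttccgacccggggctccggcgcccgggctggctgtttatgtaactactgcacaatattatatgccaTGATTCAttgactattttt
ENSG00000289016 promoter (chr17:55612943-55613143): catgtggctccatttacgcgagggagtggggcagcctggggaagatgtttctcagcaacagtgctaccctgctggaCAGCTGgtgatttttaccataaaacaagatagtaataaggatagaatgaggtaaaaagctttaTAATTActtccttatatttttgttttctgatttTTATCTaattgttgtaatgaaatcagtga
strongest sgSNHG1-only peak (chr17:53106213-53106413): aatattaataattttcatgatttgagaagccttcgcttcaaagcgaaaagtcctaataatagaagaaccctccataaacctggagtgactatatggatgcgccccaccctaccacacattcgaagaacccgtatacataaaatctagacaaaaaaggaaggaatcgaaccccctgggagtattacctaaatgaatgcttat
MIR635 distal pair (chr17:68436023-68436223): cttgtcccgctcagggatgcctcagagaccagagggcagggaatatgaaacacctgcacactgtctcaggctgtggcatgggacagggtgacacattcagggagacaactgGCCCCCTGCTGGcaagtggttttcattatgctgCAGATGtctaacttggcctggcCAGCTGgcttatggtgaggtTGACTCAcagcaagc
The ANKRD40 window was 62.7% G or C and held 16 CpG dinucleotides. The strongest distal pair and the distal pair that rose, both near the centromere, had windows of 38.8% and 39.3% G or C with 2 CpG each. Around the strongest distal pair, 2000 bases of the reference matched themselves at 53.95% of positions after a shift of 171 bases, the length of an alpha satellite unit. Around the pair that rose the best match was 34.6%, after a shift of 337 bases, and at the other 5 sites it was 30.15% or less.

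A step in the local background divided the arm. In control, the median background beneath the 17q peaks was 2.21 times the smallest background of the list (quartiles 1.65 and 2.92), and in sgSNHG1 it was 2.34 times (quartiles 1.74 and 2.97). On 17p the medians were 1.00 and 1.00, and on the other chromosomes 1.55 and 1.58. The peak caller takes the larger of the genome-wide and the local background, so 1.00 is a floor and lower levels do not show. The 17q median lay above that of each of the 22 other chromosomes taken whole in both lists, the highest of which was chromosome 11 at 1.94 and 1.99. Single arms of other chromosomes were not compared. Only 5.00% of control and 4.74% of sgSNHG1 peaks of 17q sat within 1% of the smallest background, against 66.0% and 56.2% on 17p. The difference between the arms was -61.0 percentage points in control (95% Newcombe interval -66.8 to -54.6) and -51.5 points in sgSNHG1 (-58.0 to -44.7).

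The rise did not begin at the centromere. A single least-squares change in log2 background along the arm fell in both lists next to MYO1D, which encodes an unconventional myosin. In control it lay between the peaks at chr17:32877143-32877286 and chr17:32909987-32910212, 7.81 Mb from the start of the arm, and in sgSNHG1 between chr17:32876977-32877377 and chr17:32927962-32928378, the latter within TMEM98. The position was chosen on these values, so the levels on its sides are a description. Before the step the median was 1.00 in both lists (upper quartiles 1.04 and 1.11), the same floor as on 17p. At the smallest background were 54 of 75 control and 43 of 62 sgSNHG1 peaks. Levels below the floor cannot be compared, and ratios over it are lower bounds. Beyond it the median was 2.27 in control and 2.38 in sgSNHG1, and 28 of 1565 and 26 of 1395 peaks were at the smallest background. The 10 windows of 5 Mb beyond the step had medians from 1.88 to 2.61 in control and from 1.85 to 2.84 in sgSNHG1, each above the 5 Mb windows of 17p. In windows of 1 Mb the arms overlapped: chr17:53000001-54000000 had a control median of 1.04, with 6 of 15 peaks at the smallest background, and chr17:17000001-18000000 on 17p had 1.06.

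**Figure D1:**
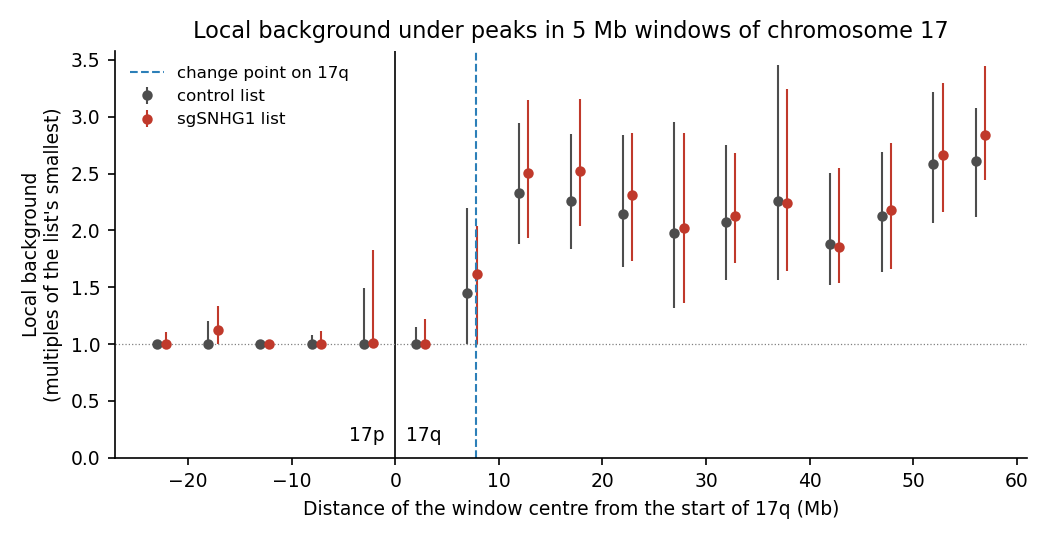
Local background under peaks, in multiples of the smallest background of each list, by 5 Mb window of chromosome 17; points are medians, bars are quartiles, the solid line is the start of 17q and the dashed line the change point of the control list. Windows of 17p and the first window of 17q had medians near 1, and the 10 windows beyond the step had medians of 1.88 or more in control and 1.85 or more in sgSNHG1.

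A peak adds its own fragments to the background around it, and peaks were denser beyond the step. The step was therefore read again on peaks with no other peak within 10 kb and with a control pileup of 14 to 24 or an sgSNHG1 pileup of 12 to 21, the quartiles before the step. Such peaks had a median background of 1.00 before the step and 1.53 beyond it in control (33 and 241 peaks), and 1.00 and 1.72 in sgSNHG1 (26 and 253 peaks). The share at the smallest background was 90.9% and 3.32% in control and 92.3% and 2.77% in sgSNHG1. G and C made up 43.5% of bases before the step, 45.5% beyond it and 45.5% on 17p. Windows of 1 Mb beyond the step differed in it, with 35.7% at chr17:53000001-54000000 and 57.9% at chr17:81000001-82000000, where the control background had medians of 1.04 and 2.76. The part of G and C content in the background was not tested.

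Peaks were also denser beyond the step. Control peaks numbered 31.1 per Mb beyond it (95% Poisson interval 29.6 to 32.7), 9.67 per Mb before it (7.61 to 12.1) and 9.45 per Mb on 17p (8.28 to 10.7), and sgSNHG1 peaks numbered 27.7, 7.99 and 8.72 per Mb. Protein-coding genes were spread more evenly, with 15.1 per Mb beyond the step, 10.6 before it and 13.9 on 17p. The control list thus held 2.07 peaks per coding gene beyond the step, 0.915 before it and 0.679 on 17p, beside 2.43 on the other chromosomes. Fold enrichment divides by this background, and its median was 4.87 in control beyond the step, 5.62 before it and 5.51 on 17p.

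Promoter peaks, those within 3 kb of a gene start, made up 43.5% of the control peaks of 17q (95% Wilson interval 41.1 to 45.9) and 46.6% of the sgSNHG1 peaks (44.1 to 49.2). The difference 17q minus 17p was -18.7 points in control (-25.1 to -11.9) and -20.7 points in sgSNHG1 (-27.1 to -13.7). The share was above that of the other chromosomes by 8.51 points (6.09 to 11.0) and 9.49 points (6.89 to 12.1). Before the step the promoter share was 64.0% in control and 71.0% in sgSNHG1, and beyond it 42.5% and 45.5%, so the stretch before the step lay near 17p in this measure too. Distal peaks numbered 17.9 per Mb beyond the step in control, 3.48 before it and 3.58 on 17p.

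Summits fell most often in introns, with 46.3% of control and 43.1% of sgSNHG1 peaks of the arm, and 30.5% and 30.8% were intergenic. Coding exons held 4.82% and 3.91%, and exons outside coding sequence, which include the untranslated ends of genes, 13.0% and 15.8%. Among distal control peaks, 553 of 927 lay in an intron.

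Of the 840 protein-coding genes of 17q, 519 (61.8%) had a promoter peak in control and 494 (58.8%) in sgSNHG1. Both lists marked 466, control alone 53, sgSNHG1 alone 28 and neither 293. With peaks of a −log10 q of 10 or more, control alone marked 91 and sgSNHG1 alone 10, and within 1 kb of a start sgSNHG1 alone marked 17. Over all 19970 coding genes, 6.17% were marked in control alone and 1.84% in sgSNHG1 alone, beside 6.31% and 3.33% on 17q. The share marked in control was 18.1 points above that of 17p (11.9 to 24.2) and in sgSNHG1 14.6 points above it (8.34 to 20.7), while against the other chromosomes the differences were -1.61 points (-5.01 to 1.69) and -0.10 points (-3.53 to 3.26). Within the arm, 63.1% of the 758 genes beyond the step and 41 of the 82 before it had a control promoter peak, a difference of 13.1 points (1.92 to 24.2). For sgSNHG1 the difference was 8.41 points (-2.69 to 19.6), an interval that holds 0.

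**Figure D2:**
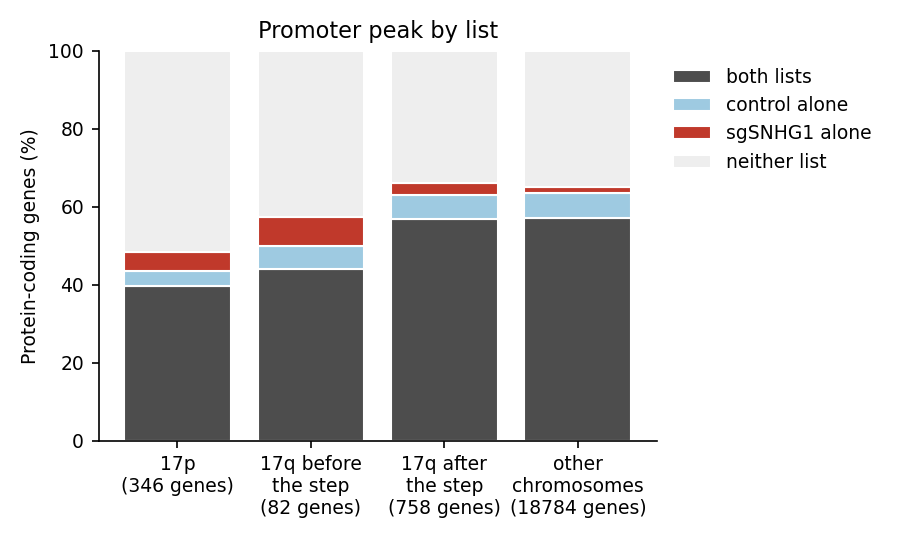
Share of protein-coding genes with a promoter peak in both lists, in control alone, in sgSNHG1 alone or in neither, for 17p, 17q on each side of the step and the other chromosomes. Both lists marked 39.6% of genes on 17p, 43.9% before the step, 56.7% beyond it and 57.2% on the other chromosomes.

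Between the lists, 17q had 183 fewer peaks in sgSNHG1, a ratio of 0.888, and the other chromosomes had a ratio of 0.897. On the log2 scale these ratios were -0.17 (counting error 0.05) and -0.16, so the loss on 17q was within counting error of that elsewhere. The deposited peaks were also narrower, with a median width of 329 bp in control and 232 bp in sgSNHG1 on 17q, and the smallest peak of any chromosome was 119 bp and 92.0 bp. Covered length on 17q was 651 kb and 422 kb.

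Of the control peaks of 17q, 67.2% (64.9 to 69.4) overlapped an sgSNHG1 peak, and of the sgSNHG1 peaks 80.1% (78.0 to 82.1) overlapped a control peak. The 538 control peaks and 290 sgSNHG1 peaks without an overlap were 32.8% and 19.9% of the arm, beside 33.3% and 21.8% over all chromosomes. Promoter peaks were shared more often, at 77.6% in control against 59.2% of distal peaks, and at 87.6% against 73.5% in sgSNHG1. Distal peaks of 17q were shared more often than those of 17p, by 12.03 points in control (1.28 to 22.5) and 13.0 points in sgSNHG1 (1.94 to 24.96), whereas for promoter peaks both intervals held 0.

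Pairing of overlapping peaks gave 1100 pairs on 17q, 552 at promoters and 548 distal. Between the lists (sgSNHG1 over control) fold enrichment had a median log2 ratio of -0.04 (95% interval of the median -0.07 to -0.02; quartiles -0.26 and 0.16), and with summit pileup scaled to the smallest background in place of fold enrichment it was 0.02 (-0.01 to 0.04), so the direction of the median turned with the measure. On the other chromosomes the medians were -0.05 and -0.01, and on 17p 0.04 and 0.16. In fold enrichment, 619 of the 1100 pairs (56.3%) were lower in sgSNHG1, 9.07 points more than on 17p (0.835 to 17.2) and 0.66 points more than on the other chromosomes (-2.34 to 3.62).

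At least 1.5 fold lower were 51 pairs (4.64%) and at least 1.5 fold higher 31 (2.82%), beside 5.72% and 3.42% of the 31663 pairs of all chromosomes. Neither share was above the background. With scaled summit pileup in place of fold enrichment the counts were 62 lower and 61 higher, so the excess of lower pairs rested on the measure. Promoters had 25 lower and 8 higher pairs, and distal sites 26 and 23. The typical counting error of a pair, taken from its pileups, was 0.38 on the log2 scale. The spread of the pairs about their median (a scaled median absolute deviation) was 0.31 in fold enrichment and 0.34 in scaled pileup, no wider than that error. Pairing leaves out peaks of a single list, so this spread does not cover sites lost or gained.

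**Figure D3:**
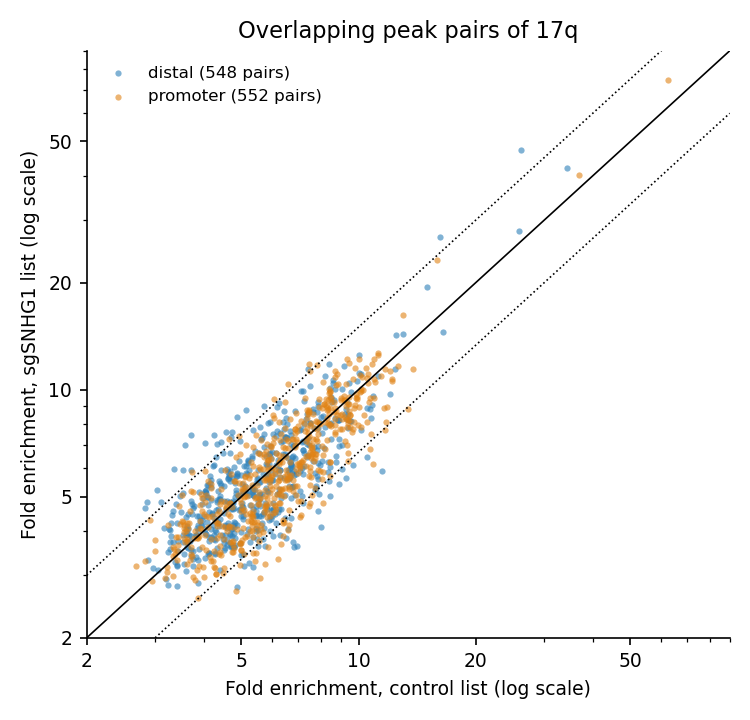
Fold enrichment of the 1100 overlapping pairs of 17q in the control and sgSNHG1 lists, both axes logarithmic; the solid line marks equality and the dotted lines a change of 1.5 fold. Pairs lie along the line of equality, with 51 past the lower and 31 past the upper dotted line.

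The strongest promoter pairs sat at U2 small nuclear RNA genes, which encode an RNA of the spliceosome, inside an intron of CCDC200. The pair at chr17:43251570-43252025 reached 62.6 (control) and 74.3 (sgSNHG1) from pileups of 377 and 314, and the one at chr17:43246222-43246768 had 36.8 and 40.1. U2 genes lie in a tandem array of near-identical copies. The authors removed reads with multiple hits, and how the rest divide among the copies is uncertain. Among protein-coding genes, LRRC37A3, of a duplicated family, had 13.0 and 16.2, and KANSL1, a subunit of the NSL histone acetyltransferase complex, 13.8 and 11.4.

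Several of the next genes share a start region. VMP1, a membrane protein of autophagy, and PTRH2, a mitochondrial hydrolase, shared a peak of 12.7 in control and 11.7 in sgSNHG1. TUBD1, which encodes delta-tubulin, and RPS6KB1, the S6 kinase downstream of mTOR, shared one of 11.2 and 12.6. BCAS3, a cytoskeletal regulator, had 11.2 and 12.5. None of these ratios passed 1.5 fold, and those of VMP1, PTRH2, TUBD1, RPS6KB1, BCAS3 and KANSL1 were within their counting error of 0.

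TBX2 was among the weaker promoters. Its peak reached 4.33 in control (pileup 43) and 3.82 in sgSNHG1 (log2 ratio -0.18, error 0.35). Of the 9 genes of its neighbourhood, 7 were marked in both lists and 5 of these were lower in sgSNHG1. APPBP2, which binds the amyloid precursor protein, fell from 11.7 to 7.68 (log2 ratio -0.60, error 0.31) and was the only one past 1.5 fold. TBX2-AS1, which starts past the far end of TBX2 and runs antisense across it, had 3.87 and 2.59 (-0.58), just inside the threshold. INTS2, a subunit of the Integrator complex, had 5.62 and 7.21, and TBX4 and NACA2 had no promoter peak in either list.

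Each of the 18 genes listed as candidates of 17q gain had a promoter peak in at least 1 list. Both lists marked 16 of them, and 13 of the 16 were lower in sgSNHG1, with a median log2 ratio of -0.12 (-0.13 with scaled pileup), beside -0.07 over all coding genes and -0.08 over those of 17q, of which 62.2% were lower. No member passed 1.5 fold, where 4.31% of coding genes were lower and 1.17% higher by that much. PHB1, a mitochondrial prohibitin, had 12.03 and 11.3, RPS6KB1 11.2 and 12.6, and TRIM37, a ubiquitin ligase of centrosome control, 10.4 and 11.5. NME1, a nucleoside diphosphate kinase, had 10.6 and 11.0, while its neighbour NME2 had 5.39 and 4.25. BIRC5 had the lowest ratio, from 6.94 to 5.35 (-0.37, error 0.39). IGF2BP1, an RNA-binding protein, had a promoter peak in sgSNHG1 alone (4.27), and CBX2, a Polycomb subunit, in control alone (4.34).

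Of all coding genes of 17q, 55.5% were marked in both lists, with 62.2% of these lower, and 34.9% in neither. These shares are the background for this list and those below. All 22 translation and ribosome genes were marked in both lists, with 14 lower and 8 higher and a median of -0.04 (0.02 with scaled pileup). NOL11, a nucleolar protein of ribosomal RNA processing, had the highest control value, 11.8, and 8.12 in sgSNHG1 (-0.54, error 0.28), followed by RPL27 with 11.0 and 10.5. UTP6, of the same processing complex, rose from 7.80 to 11.8 (0.59, error 0.39), and RPL23A, a protein of the large subunit, fell from 7.61 to 5.06 (-0.59, error 0.45, but -0.31 and inside 1.5 fold with scaled pileup). The 4 small nucleolar RNA host genes of the arm, the class to which SNHG1 belongs, were open in both lists: SNHG30 had 10.9 and 12.2, SNHG25 7.51 and 7.97, SNHG16 9.09 and 8.25, and SNHG20 7.56 and 5.66. Their ratios went both ways and none passed 1.5 fold.

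Of 23 cell cycle and replication genes, 19 were marked in both lists, 12 of them lower, with a median of -0.06 (-0.04 with scaled pileup) and none past 1.5 fold. SKA2 and PRR11, mitotic genes that share a start region, had the highest control value, 11.4, and 10.9 in sgSNHG1, and TOP2A, the DNA topoisomerase of dividing cells, had 10.5 and 10.8. SPAG5, a spindle protein, had the lowest ratio (8.43 and 6.25) and RECQL5, a DNA helicase, the highest (5.73 and 6.48). Of 30 chromatin and transcription genes, 23 were marked in both, with a median of 0.00 (-0.02 with scaled pileup). KANSL1 (13.8 and 11.4) and TAF15, an RNA-binding protein (10.1 and 9.89), led, HDAC5, a class IIa histone deacetylase, fell from 7.08 to 4.37 (-0.70, error 0.36, but inside 1.5 fold at -0.55 with scaled pileup and at -0.31 when the start of any transcript was used), and KAT7, a histone acetyltransferase, had the highest ratio (7.39 and 8.53). Control alone marked 4 members, KAT2A, UBTF and CBX2 among them, and sgSNHG1 alone SUPT6H and MED24.

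Of 32 neural genes, 12 were marked in both lists and 15 in neither, with a median of -0.09 (0.01 with scaled pileup) and none past 1.5 fold. SSTR2, the somatostatin receptor imaged in neuroblastoma, had 5.49 and 4.24, CA10, a carbonic anhydrase-related protein of synapses, had 5.47 and 4.36 (the stronger of 2 sgSNHG1 peaks that overlapped its control peak), MAPT, which encodes tau, 5.01 and 5.19, and KCNH4, a potassium channel with the highest ratio, 3.47 and 4.20. PNMT, which converts noradrenaline to adrenaline, had a peak in sgSNHG1 alone (4.33), as did CDK5R1, an activator of the neuronal kinase CDK5 (4.56). CRHR1, CACNG4 and SDK2 had one in control alone. BAIAP2 had the lowest ratio (5.07 and 3.55), but from different sites in the lists.

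Of 22 mesenchymal genes, 14 were marked in both lists, 8 lower and 6 higher, with a median of -0.09 (-0.08 with scaled pileup). STAT3, a transcription factor of cytokine signalling, had the highest control value (9.03 and 9.45), followed by MXRA7, a matrix-remodelling associated protein, which fell from 7.46 to 4.71 (-0.66, error 0.34). SOCS3, an inhibitor of that signalling, fell from 6.60 to 4.02 (-0.72, error 0.37). SOX9, a neural crest transcription factor, had the highest ratio, 5.12 and 6.98 (0.45, error 0.34). CAVIN1, WNT3, WNT9B and ITGA3 had a promoter peak in control alone, that of WNT3 and WNT9B being the same peak.

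The lists for other cell types were mostly closed. Keratin and keratin-associated genes had no promoter peak in either list at 60 of 67 members, and the 4 marked in both were KRT19 (7.92 and 8.06), KRTAP29-1 (8.96 and 7.76), KRT15 (4.10 and 4.11) and KRTAP16-1. Blood cell genes had none at 27 of 33, with 3 marked in both, among them LPO (8.71 and 10.8) and CSF3 (4.57 and 4.63), and CCL2, CCL1 and IKZF3 marked in sgSNHG1 alone. Of 8 hormone genes, 6 were marked in neither list, GH1 in control alone and PYY in both (3.59 and 3.73). The list for the HOXB cluster held the HOXB genes, which encode body-axis transcription factors, and their neighbours PRAC1 and SKAP1. Of its 12 genes, 10 had no promoter peak in either list. A single sgSNHG1-only peak at chr17:48602699-48602800 (6.66, pileup 28) stood for both HOXB3 and HOXB6.

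**Figure D4:**
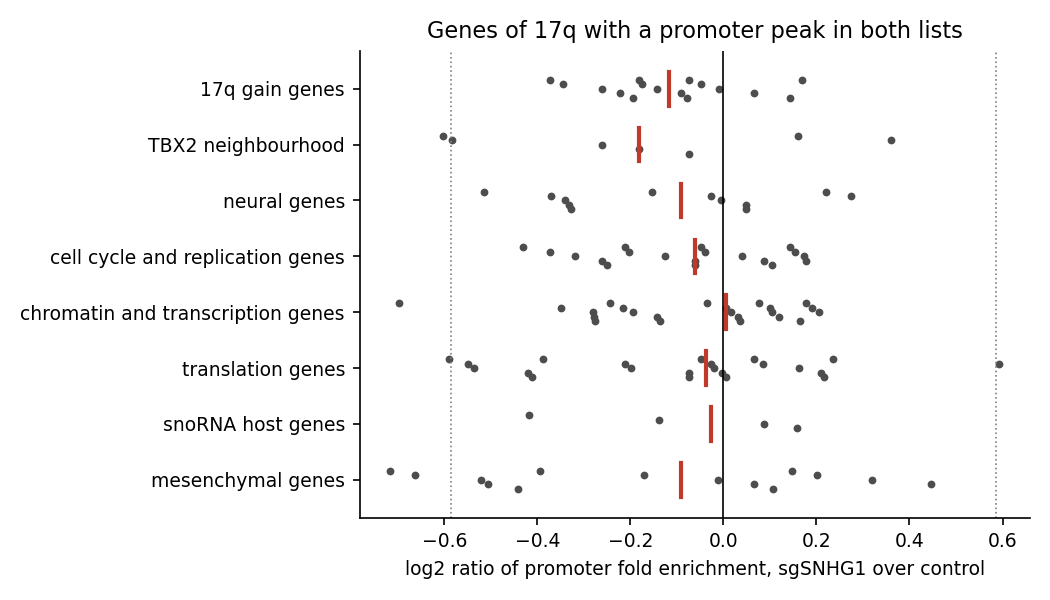
The log2 ratio of promoter fold enrichment, sgSNHG1 over control, for the genes of 8 lists on 17q with a promoter peak in both lists; each point is a gene, red bars are medians and dotted lines mark 1.5 fold. List medians lie between -0.18 and 0.00.

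Where both peaks of a pair had a −log10 q of 10 or more (523 pairs of 17q), 8 pairs fell and 13 rose by 1.5 fold or more. Over all chromosomes, 288 of 15717 such pairs fell and 224 rose. Before the step, 0 of 19 such pairs fell and 3 rose. Of the 523 pairs, the one that fell most was the promoter of ANKRD40, an ankyrin repeat protein, at chr17:50707257-50708223, from 10.9 to 6.17 with pileups of 71 and 28 (log2 ratio -0.82, error 0.32). The promoter that fell second most was that of LUC7L3, a splicing factor, at chr17:50719256-50719893, from 10.7 to 6.82 (-0.65, error 0.30). LINC02210, whose start is shared by the read-through gene LINC02210-CRHR1, fell from 13.4 to 8.83 (-0.60, and inside 1.5 fold at -0.51 with scaled pileup), and NOL11, TSEN54, a subunit of the tRNA splicing endonuclease (6.99 and 4.85), and the non-coding ENSG00000267248 and ENSG00000263096 stayed inside 1.5 fold. ANKRD40 and LUC7L3 are neighbours on the map.

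Among the same 523 pairs, the promoters that rose most were that of the non-coding gene ENSG00000289016 at chr17:55612829-55613367, from 7.47 to 11.8 (0.66, error 0.31), and that of SYNRG, a partner of the AP1 vesicle adaptor, with its summit in a coding exon, from 6.60 to 10.3 (0.65, error 0.31). DNAJC7, a heat-shock co-chaperone, rose from 4.65 to 7.27 at a peak 1277 bp from its start (0.64), but with the start of any transcript the ratio was 0.016. MAP2K6, a kinase that activates p38, rose from 7.52 to 11.3 (0.59, and inside 1.5 fold at 0.52 with scaled pileup). HLF, a PAR bZIP transcription factor, rose at its start from 6.07 to 9.44 (0.64, error 0.34, but 0.17 with the start of any transcript), whereas the peak at ENSG00000263096, in an intron of HLF at 8847 bp from its start, had 8.43 and 5.70 (-0.56, error 0.35). For each of the promoter pairs plotted for the size of their change, the 95% counting intervals of the 2 fold enrichments overlapped. Such overlap does not place a ratio within counting error. The 95% counting interval of the log2 ratio left out 0 at ANKRD40 (-1.45 to -0.19), LUC7L3 (-1.24 to -0.06) and SYNRG (0.04 to 1.26). That interval also left out 0 at ENSG00000289016 (0.66, error 0.31). It held 0 at APPBP2, NOL11, TSEN54, LINC02210-CRHR1, DNAJC7, HLF, UTP6 and MAP2K6. It also held 0 at ENSG00000267248, ENSG00000263096 and ENSG00000289599 (0.59, error 0.33). All were picked for their change among the 523 pairs.

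**Figure D5:**
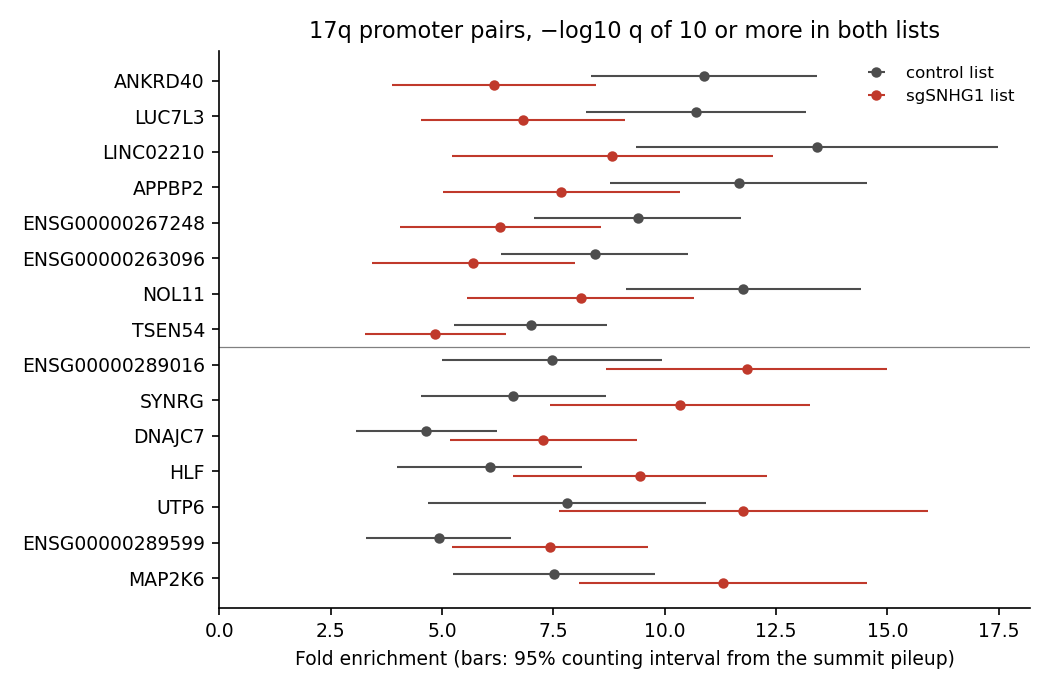
Fold enrichment in the control and sgSNHG1 lists at the 8 promoter pairs of 17q with the lowest ratios and the 7 that rose by 1.5 fold or more where −log10 q reached 10 in both (above and below the line); bars are 95% counting intervals from the summit pileup. ANKRD40 had 10.9 and 6.17 and ENSG00000289016 7.47 and 11.8. In each pair the bars overlap, which does not place the ratio within counting error.

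Among distal sites of these 523 pairs the largest rise was at chr17:25920057-25920318, close to the centromere and 1061494 bp from any gene start, from 26.2 to 47.4 with pileups of 83 and 128 (0.86, error 0.20). Another at chr17:26594831-26595038 rose from 16.2 to 26.8 (0.73, error 0.26). How reads were placed among repeats near the centromere was not tested, and the counting errors do not cover it. Of the 8 strongest distal pairs of the arm, 5 lay before the step, between chr17:25920057 and chr17:26885877. Distal sites beyond the step included one in an intron of FAM117A, 24317 bp from the start of the acetyltransferase gene KAT7, with 13.0 and 14.3, and one in an intron of SPAG9, a scaffold of JNK signalling, with 12.5 and 14.2.

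A group of neighbouring distal sites near TMEM100, a membrane protein of endothelial and sensory cells, changed in both directions. The middle site at chr17:55691640-55692010 fell from 8.91 to 5.41 (-0.72, error 0.28). On its flanks, chr17:55690125-55690521 rose from 4.71 to 7.38 (0.65, error 0.30) and chr17:55693922-55694058 from 4.43 to 7.12 (0.68, error 0.31). All 3 lay within the 10 kb over which the background is taken, and with scaled pileup the log2 ratios were -0.47, 0.91 and 0.96. Other distal falls were at chr17:66920898-66921316, 43560 bp from the start of CACNG4, a calcium channel subunit (10.5 and 6.44), in an intron of MPP2, a synaptic scaffold (9.67 and 6.15), and in an intron of RGS9, a regulator of G-protein signalling (9.07 and 5.98).

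Among peaks of a single list, the strongest control-only peak lay at the start of the non-coding ENSG00000267009, with 9.76 from a pileup of 33. At promoters of coding genes, control-only peaks were led by UNC119, a lipid-binding trafficking protein (6.55), the shared start region of TLCD1 and NEK8 (5.73), TRAF4, a signalling adaptor (5.60), TNS4, a tensin (5.42), and SLFN11, a restriction factor linked to the response to DNA damage (5.23). The 5 strongest distal ones ranged from 7.11 to 7.56, and 2 of them, at chr17:57598986-57599321 and chr17:57488838-57489148, lay in introns of MSI2, an RNA-binding regulator of stem and progenitor cells.

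The strongest sgSNHG1-only peak lay at chr17:53106274-53106380, 579 bp from the start of MTCO1P40, a nuclear copy of a mitochondrial gene, with 32.2 from a pileup of 131. No control peak overlapped it. Whether reads of mitochondrial origin were placed there was not tested. At promoters of coding genes the next were at APOH, a plasma glycoprotein (8.56), C17orf78, in an intron of ACACA (7.80), HOXB3 (6.66), CCL2, a chemokine (5.80), and KRT32, a hair keratin (5.69). These 5 peaks were 97 to 199 bp wide. Distal ones included a coding exon of BPTF, the largest subunit of the NURF remodeller (7.45), and introns of RGS9 (7.21) and BRIP1, a helicase of DNA repair (6.99).

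The widest control peaks were at UTP18 and MBTD1, which share a start region (chr17:51259723-51261352, 1630 bp), in an intron of TLK2, a kinase of chromatin assembly (1570 bp), at PIGW, inside MYO19 (1535 bp), at KANSL1-AS1 (1504 bp) and at CEP95, with its summit in an intron of DDX5 (1473 bp). Their control fold enrichments were moderate, from 5.51 at TLK2 to 7.66 at UTP18 and MBTD1.

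For features of sequence that the choice of peaks did not use, windows of 100 bases on either side of each summit were searched on both strands for the CTCF consensus and for 12 short words, none of which contains another: TGANTCA for AP-1, GGGGCGGGG for SP and KLF factors, CCGGAAGT for ETS factors, GCATGCGC for NRF1, CCAAT for NF-Y, AAGATGGCG for YY1, CAGCTG for one class of bHLH factors and CATCTG for another class, AGATAA for GATA factors, TAATTA for homeodomain factors, AGGTGTGA for T-box factors and ACATTCC for TEAD factors. A match says only that the letters are present. Promoter windows of 17q had a median of 66.2% G or C and 16 CpG in control, and distal windows 55.7% and 4, beside 50.2% in distal windows of the other chromosomes and 59.2% on 17p. Of 104 differences in match share between 17q and the rest, 17 had an interval without 0.

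Distal 17q peaks held fewer GATA matches than those of the other chromosomes, 11.2% against 15.3% in control (difference -4.07 points, -5.98 to -1.83) and 10.0% against 15.8% in sgSNHG1 (-5.76 points, -7.73 to -3.41). They held more CAGCTG, 24.8% against 21.1% (3.71 points, 0.994 to 6.62) and 28.0% against 24.0% (4.05 points, 0.960 to 7.35), and more SP and KLF matches, 3.13% against 1.85% and 3.73% against 1.98%. Against 17p, CCAAT was rarer in distal windows, by -11.4 points in control (-21.9 to -2.28) and -13.9 points in sgSNHG1 (-25.8 to -3.34). SP and KLF matches were also rarer than on 17p, at 3.13% against 8.99% in control (-5.86 points, -13.7 to -1.30). In sgSNHG1 they were at 3.73% against 8.45%, with an interval that held 0 (-13.6 to 0.06). For GATA and CAGCTG the intervals against 17p held 0 in both lists. The CTCF consensus was found in 4.85% and 5.27% of distal 17q windows, beside 4.24% and 4.29% on the other chromosomes, and the intervals of its difference from 17p and from the other chromosomes held 0 in both lists.

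Between the lists, 1 of 26 differences in match share had an interval without 0. AP-1 was matched in 15.5% of the 206 distal sgSNHG1-only peaks of 17q (11.2 to 21.1), in 6.08% of the 378 distal control-only peaks (4.09 to 8.96) and in 8.93% of the 549 shared control peaks. The difference between the single-list groups was 9.45 points (4.27 to 15.4). The same difference was 3.46 points on the other chromosomes (2.60 to 4.34), where the shares were 11.3% and 7.80%, so the direction was not particular to the arm. With peaks of a −log10 q of at least 10 alone, the 17q difference was 3.62 points and its interval held 0 (-3.62 to 14.3).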

How the data were processed

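ATAC-seq was done by the authors in 2 replicates each of control and sgSNHG1 SK-N-BE(2)C cells. Per the study's methods and processing notes, reads were trimmed (cutadapt) and aligned to GRCh38 (BWA), duplicates, reads with multiple hits, mitochondrial and blacklisted reads were removed, and peaks were called with MACS2 on combined replicates. The deposited lists hold, per peak, a score, the fold enrichment as a ratio, −log10 p and −log10 q values and a summit offset, with no control track and no read totals. Versions and the cut-off used are not given in the sources used here; the smallest deposited −log10 q was 2.00.

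From these files, the summit pileup and local background were solved from fold enrichment and −log10 p with the MACS2 Poisson formula (47609 of 47610 and 42682 of 42682 peaks matched within 0.001 of the −log10 p) and divided by the smallest background of the list. MACS2 without a control takes the larger of the genome-wide background and that of the surrounding 10 kb. Peaks were shared if they overlapped by at least 1 bp, and pairs were mutual best overlaps. Promoters lay within 3 kb of a gene start of GENCODE version 44, and distal peaks were the rest. A gene took its strongest promoter peak. The counting error of a log2 ratio came from the 2 pileups as Poisson counts. Called means a change of at least 1.5 fold, since 1 list per group allows no test.

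The members and gene lists were chosen with earlier results of these data known. Named genes were TBX2, the strongest, widest and most changed promoters and peaks, and from each list the 2 highest in control and the largest rise and fall. The background step, the peaks set apart from others, the TMEM100 sites, the AP-1 comparison of single-list peaks, the sequences at ENSG00000289016 and MIR635, and a few members named beyond the rule (TRIM37, NME1, NME2, TOP2A, MAPT) were chosen after the values were seen. The functions were tested on simulated data. Python 3.11.15, numpy 2.4.6, pandas 2.3.3, scipy 1.17.1, statsmodels 0.14.6 and matplotlib 3.10.9 were used. Some genes and sequences the rule names are not reported here.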

Additional observations from a re-analysis of the deposited data

How the results depend on the processing

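No paired analysis was possible because the replicates were combined in the deposited lists, and for the same reason no replicate could be left out. The cause of the changes below was not tested, except that stricter thresholds and overlaps keep fewer peaks by construction. With peaks of a −log10 q of at least 5 and of at least 10, respectively, the ratio of 17q peak numbers was 0.827 and 0.744 in place of 0.888, the control promoter share 46.1% and 54.2% in place of 43.5%, the median log2 ratio of pairs -0.022 and -0.0083 in place of -0.045, the number of pairs past 1.5 fold 49 and 21 in place of 82, the ratio of 17q to 17p control background 2.35 and 2.48 in place of 2.21, and the median log2 width ratio -0.39 and -0.34 in place of -0.43. At a −log10 q of at least 10, 63.9% of control peaks were shared and 305 genes were marked in both lists in place of 466, 91 in control alone in place of 53 and 10 in sgSNHG1 alone in place of 28 (17 with 1 kb). Requiring that 50% of each peak be overlapped gave 47.9% shared control peaks in place of 67.2% and 51 pairs past 1.5 fold. The promoter share of control was 35.2% with 1 kb, 58.3% with the start of any transcript and 31.3% with protein-coding genes alone, and in each case it stayed below that of 17p. Scaled summit pileup turned the median log2 ratio of pairs to 0.018 and gave 62 pairs lower and 61 higher by 1.5 fold in place of 51 and 31. At 2 fold, 1 pair was left. In windows of 50 bases on either side of the summit, 3.45% of distal control peaks matched CTCF in place of 4.85%. Named genes that moved inside 1.5 fold were DNAJC7 (log2 ratio 0.016), HLF (0.17) and HDAC5 (-0.31) with the start of any transcript, and RPL23A (-0.31), LINC02210-CRHR1 (-0.51), MAP2K6 (0.52) and HDAC5 (-0.55) with scaled pileup. ANKRD40, LUC7L3, APPBP2, SYNRG, UTP6, SOCS3 and MXRA7 stayed past 1.5 fold with scaled pileup. For these genes the other alternatives that gave a value returned the main ratio unchanged, so they were no separate check. With fold enrichment, the counting interval covered both signs at APPBP2 (-1.22 to 0.01) and UTP6 (-0.18 to 1.36). The same held for SOCS3 (-1.44 to 0.006) and MXRA7 (-1.34 to 0.01), but not for ANKRD40, LUC7L3 and SYNRG. With scaled pileup it held for UTP6 and SOCS3 alone among these genes. Leaving out the peaks near the centromere was checked for whole-arm values alone: peak numbers, shared peaks, promoter share, and the medians of pair ratio, background and width. These stayed within their intervals. Values of single pairs and of the stretch before the step were not checked in this way. On peaks set apart from others, chosen after seeing the data, the background beyond the step over that before it was 1.53 in place of 2.27 in control and 1.72 in place of 2.38 in sgSNHG1. In each case the median before the step was at the floor of the measure.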

Other observations

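Some long genes of 17q carried many peaks within their bodies. MSI2 held 36 in control and 28 in sgSNHG1 over 429 kb, of which 34 and 26 were distal, and SEPTIN9, a cytoskeletal GTPase, held 24 and 16 over 220.0 kb. RPTOR, the scaffold of mTOR complex 1, held 19 and 14, and PRKCA, which encodes protein kinase C alpha, held 16 in control and 23 in sgSNHG1, more in sgSNHG1 where the arm as a whole had fewer. ASIC2, an acid-sensing ion channel of neurons and the longest of the genes with most peaks at 1162 kb, held 11 and 13, or 0.947 per 100 kb in control against 12.7 for CUEDC1. Peaks were counted by their summits, and the lists have no replicates, so the differences between them were not tested.

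The longest stretch between neighbouring peaks of the arm lay close to the centromere in both lists, 675 kb in control and 652 kb in sgSNHG1, with no coding gene start. The stretch from the start of the arm to its first peak was not counted. Another stretch of 613 kb in control and 614 kb in sgSNHG1, from chr17:37643619 and chr17:37643539, held 7 starts of coding genes and no peak in either list. The median distance between neighbouring peaks was 16.5 kb in control and 20.5 kb in sgSNHG1.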
